A study of Mus musculus with 30 samples.

Results

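The 30 genes described here make cholesterol, run the sterol-sensing SREBP2 system or move cholesterol into and inside the cell. They were taken as a list of gene symbols from the 49089 genes counted in every sample. The list holds 20 enzymes of synthesis, 6 genes of the SREBP2 machinery and 4 genes of uptake and intracellular transport. RNA-seq counts of polyadenylated RNA were available for all 30 genes, and 29 of them passed the low-count filter that left 11368 genes for testing. The exception was Mylip, an E3 ubiquitin ligase that targets lipoprotein receptors for degradation, with group means from 0.279 to 1.45 CPM (counts scaled to library size, with TMM adjustment).

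The samples were cultures of AML12, a line derived from mouse hepatocytes. The 8 groups crossed 4 genotypes, namely Control, Foxk1 KD, Foxk2 KD and the knockdown of both genes (Double FoxK1/2 KD, or DKD), with insulin. All cells were serum-starved overnight in DMEM with 0.1% BSA, and then left without insulin (basal) or given insulin at 100 nM for 6 h. There were 4 samples in each group, apart from Control and DKD cells after insulin with 3 each. Basal samples carry a treatment time of 0 in the labels, although the protocol describes a mock treatment. Knockdown was by transfected siRNA, with a non-targeting siRNA in Control cells, so the target RNAs were lowered and not removed. At basal, Foxk1 averaged 81.4 CPM in Control cells, 36.8 in Foxk1 KD cells and 46.5 in DKD cells, and Foxk2 averaged 140 CPM in Control cells, 47.3 in Foxk2 KD cells and 50.2 in DKD cells. Foxk2 was also somewhat lower in Foxk1 KD cells at basal, at 117 CPM, with a log2 difference from Control of -0.26 ± 0.08 (SE, edgeR adjusted p = 0.0487). Foxk1 averaged 69.9 CPM in Foxk2 KD cells at basal (edgeR adjusted p = 0.441). After insulin, Foxk1 averaged 53.0, 30.9 and 34.2 CPM in Control, Foxk1 KD and DKD cells. The log2 difference of Foxk1 from Control was -1.14 ± 0.12 (SE) at basal and -0.78 ± 0.14 after insulin in Foxk1 KD cells. In DKD cells it was -0.82 ± 0.12 and -0.62 ± 0.15. The part of this smaller difference in the calls after insulin was not tested. FoxK1 and FoxK2 are forkhead transcription factors, and the study asked what each contributes to the insulin response of the cells.

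Cholesterol is built from acetyl-CoA through mevalonate, isoprenoids, squalene and lanosterol, by enzymes of the cytosol and endoplasmic reticulum. When sterols in the endoplasmic reticulum are low, the escort protein SCAP carries the precursor of SREBP2 to the Golgi, where the site-1 and site-2 proteases (Mbtps1 and Mbtps2) release the transcription factor that switches on these enzymes. When sterols are plentiful, the INSIG proteins hold SCAP back. The liver is a main site of both synthesis and uptake, and insulin is known to raise SREBP activity in hepatocytes.

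To show the DNA next to which these genes start, RefSeq promoter windows (GRCm38.p6) from 250 bases before to 50 bases after each start were searched on both strands. Windows were at hand for 25 of the 30 members, and Fdps, Fdft1, Sqle, Stard4 and Npc1 had none. The CCAAT box, letters CCAAT, was in the windows of 84.0% of the 25 members and of 41.1% of all 27025 genes with a window. The GC box, letters GGGCGG, was in those of 88.0% of members and 38.2% of all genes. The E-box CACGTG was in those of 5 of the 25 members (Hsd17b7, Sc5d, Dhcr7, Scap and Insig1) and 8.09% of all genes. A sterol regulatory element, written TCACNCCAC, was in the window of Hmgcs1 among the members (4.0%) and in those of 1.44% of all genes. The forkhead core GTAAACA was in the window of Mbtps1 among the members (4.0%) and in those of 4.05% of all genes. The 27025 genes exceed the 11368 that passed the low-count filter, so they include genes below it. No comparison with expressed genes alone was made. No motif holds the letters of another, and a match is a description of letters, not of binding.

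The upstream stretches of 4 members are shown 5′ to 3′ on the gene's strand, for an enzyme with the sterol element (Hmgcs1), the enzyme that was lower in DKD cells both at basal and after insulin (Hsd17b7), and the INSIG pair, of which one member responded to insulin and the other was not called. Capitals mark the sterol element, the CCAAT box on either strand and the E-box, and bases inside annotated exons were left off.
Hmgcs1 (GRCm38.p6 chr13:119690101-119690350, plus strand): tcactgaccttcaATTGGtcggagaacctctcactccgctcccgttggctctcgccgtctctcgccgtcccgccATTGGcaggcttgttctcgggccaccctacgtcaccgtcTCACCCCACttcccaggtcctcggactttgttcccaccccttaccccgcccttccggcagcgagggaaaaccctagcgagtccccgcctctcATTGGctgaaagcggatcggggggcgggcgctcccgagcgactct
Hsd17b7 (GRCm38.p6 chr1:169969242-169969408, minus strand): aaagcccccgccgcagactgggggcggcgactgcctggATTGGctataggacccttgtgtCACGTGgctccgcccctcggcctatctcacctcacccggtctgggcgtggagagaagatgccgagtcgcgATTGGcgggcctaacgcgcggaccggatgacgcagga
Insig1 (GRCm38.p6 chr5:28071162-28071362, plus strand): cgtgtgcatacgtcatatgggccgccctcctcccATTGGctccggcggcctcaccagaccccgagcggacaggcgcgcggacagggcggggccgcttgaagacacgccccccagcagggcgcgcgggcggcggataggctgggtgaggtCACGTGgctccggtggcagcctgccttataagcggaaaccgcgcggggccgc
Insig2 (GRCm38.p6 chr1:121332590-121332839, minus strand): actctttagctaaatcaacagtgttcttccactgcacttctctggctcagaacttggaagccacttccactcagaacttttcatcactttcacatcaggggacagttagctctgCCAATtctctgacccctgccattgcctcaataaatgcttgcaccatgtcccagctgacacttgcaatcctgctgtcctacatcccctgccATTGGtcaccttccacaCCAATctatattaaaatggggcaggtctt
In Hmgcs1 the sterol element starts 137 bases before the start site, with CCAAT boxes at 237, 176 and 45 bases before it. Hsd17b7 and Insig1 carry the E-box at 143 and 101 bases before their starts. The Insig2 stretch, from its most upstream start, has 3 CCAAT boxes and neither of the other motifs in capitals. Other Insig2 windows with a match held a GC box and no CCAAT box, and which start these cells used was not examined.

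Samples held 2141460 to 5668270 counts on genes. Of the hepatocyte markers, Krt18 (812 to 1668 CPM), Krt8 (433 to 983 CPM) and Hnf4a (89.6 to 152 CPM) were present in every sample, while Alb was low at 2.50 to 65.2 CPM. Foxa2 and Ttr were lower than Hnf4a, with group means of 28.3 to 41.4 and 19.3 to 45.6 CPM. Trf and Cebpa were low too, with group means of 8.30 to 21.2 and 7.19 to 14.1 CPM. The biliary markers Krt19 (323 to 753 CPM) and Sox9 (168 to 296 CPM) were also present and Epcam was at 0. The 10 stellate, endothelial and blood cell markers were at 2.96 CPM or less. Control basal replicate 1 stood apart from its group, with a root-mean-square log2 difference of 0.486 from the other replicates against 0.277 to 0.294 for those, so calls against Control at basal that were lost without it are named as such. The libraries also fell into sets by the intronic transcript Gm42939, at 0 to 0.284 CPM in basal samples of the Control and both single knockdowns and at 4.43 to 13.5 CPM in the DKD basal and all insulin samples. The processed pseudogene Rps2-ps10 had the same division, and Gm13668 had it except in DKD insulin replicate 3, at 0.221 CPM against up to 0.330 in the first set. The comparisons of DKD with Control at basal, and of insulin with basal in Control, Foxk1 KD and Foxk2 KD cells, run across that division, as do DKD against Foxk1 KD at basal and the DKD insulin effect minus that of Control, and its part in them was not tested. The comparison of insulin with basal in DKD cells, and those between genotypes after insulin, lie within it.

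Levels in Control cells at basal are given per kilobase of exon, for a rough comparison between genes. The length joins all annotated exons of a gene, and which transcripts the cells used was not examined. A gene with long exons that are not used would therefore read too low. The highest level was that of Hmgcs1, which makes HMG-CoA, at 197 CPM per kb. Acat2, the cytosolic thiolase of the first step, followed at 179, and Cyp51, the lanosterol demethylase, at 173 CPM per kb. The standard deviations over the 4 samples, in CPM, were 147 on a mean of 907 for Hmgcs1, 111 on 455 for Acat2 and 46.3 on 764 for Cyp51, so these 3 neighbours did not differ beyond their spread. Ebp, the sterol isomerase, and Msmo1, which removes methyl groups from lanosterol products, stood next at 133 and 126 CPM per kb. Among the regulators, Insig1 (95.5) and Srebf2 (82.6), which encodes SREBP2, exceeded Scap (22.9), Mbtps1 (11.6) and Mbtps2 (10.2 CPM per kb). Ggps1, which makes geranylgeranyl diphosphate for protein prenylation, was the lowest enzyme at 6.81, and Mylip was at 0.448 CPM per kb. The levels of Fdps and Idi1 are uncertain, because Fdps shares 1124 exon bases on its own strand with Gm43738, and Idi1 is 100% identical over 684 bases to the pseudogene Gm13502. Tm7sf2 shares 532 exon bases on its own strand with Vps51. Acat2 has a close copy in Acat3, at 97.7% identity over 1477 bases, and matches Tcp1 at 98.7% over 445 bases. Group means were 0.170 to 0.596 CPM for Acat3 and 445 to 562 CPM for Tcp1. How reads from such shared or similar stretches were counted is not given in the sources used here.

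RNA of most of the pathway was higher after insulin in all 4 genotypes; in bulk RNA, more expressing cells and more RNA per cell cannot be told apart. In Control cells 18 of the 29 tested members rose and 1 fell at an FDR below 0.05 (quasi-likelihood test of edgeR, adjusted over all tested genes by the Benjamini-Hochberg method), where 12.4% of all tested genes rose and 13.1% fell. In Foxk1 KD cells 19 rose and 3 fell (16.2% and 15.4% of all genes), in Foxk2 KD cells 22 rose and 1 fell (14.4% and 13.7%), and in DKD cells 18 rose and 2 fell (8.31% and 7.99%). The median log2 fold change over the 29 members was 0.33 for Control, 0.40 for Foxk1 KD, 0.37 for Foxk2 KD and 0.44 for DKD cells, beside medians over all tested genes between -0.01 and 0.01. There were 14 members that rose in all 4 genotypes, 5 that rose in 3, 3 that rose in fewer and 7 that rose in none. The matching shares of all tested genes were not counted, so these joint counts have no rate beside them. When only the Control groups were fitted, 11 members were called, and 1085 of 10826 genes in either direction.

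**Figure D1:**
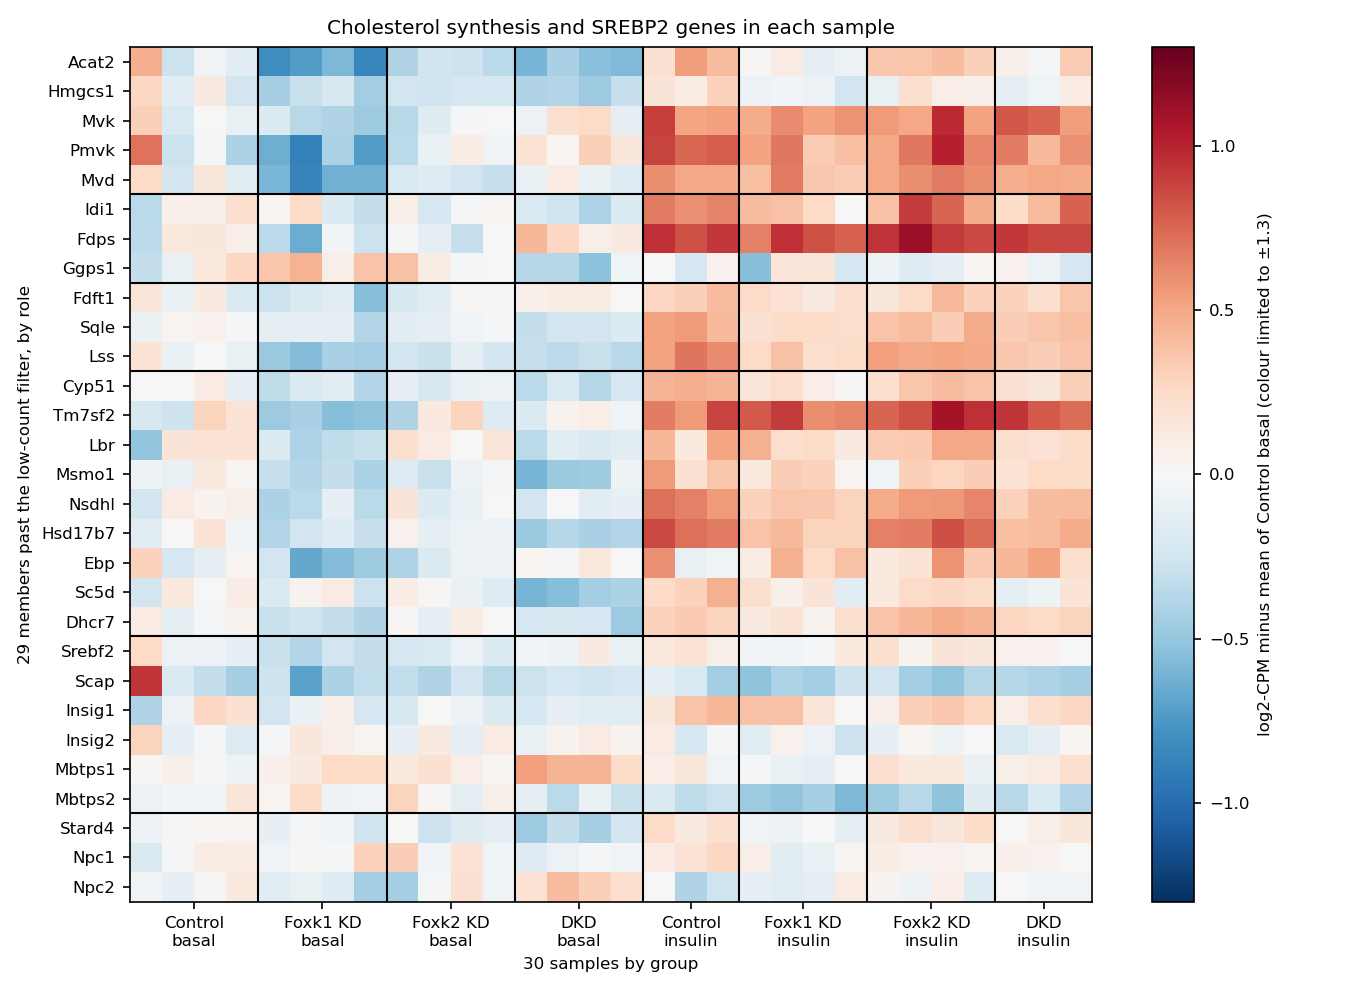
Heat map of log2-CPM of the 29 tested members (rows, grouped by role) in the 30 samples (columns, by group) minus the mean of the Control basal samples; red is higher and blue is lower, with the colour limited to 1.3 in either direction. Most enzyme rows are red in the insulin samples of every genotype, the basal Foxk1 KD and DKD samples are mostly blue, and the first Control basal sample differs from the other 3 in several rows, among them Scap at 300 against 116 to 138 CPM.

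The 5 enzymes from acetyl-CoA to isopentenyl diphosphate responded by different amounts. Mvd, which makes isopentenyl diphosphate, read 201, 143, 187 and 153 CPM in the Control basal samples and 259, 240 and 238 CPM after insulin, groups that did not overlap. Its log2 fold change was 0.52 ± 0.10 (SE) in Control cells and 1.12 ± 0.09 in Foxk1 KD cells (edgeR adjusted p = 8.86e-05 and 4.71e-11). Mvk and Pmvk, the mevalonate and phosphomevalonate kinases, rose by 0.66 ± 0.12 and 0.76 ± 0.16 in log2 in Control cells, and Pmvk missed the threshold in DKD cells (0.41 ± 0.16, edgeR adjusted p = 0.08). Hmgcs1 was the exception in Control cells, at 1082, 814, 971 and 760 CPM at basal and 1009, 962 and 1106 CPM after insulin. These groups overlapped, and the log2 difference was 0.18 ± 0.10 (edgeR adjusted p = 0.168). The highest basal value was that of replicate 1, and the Control effect without it is not given here. Hmgcs1 rose in the 3 other genotypes. In DKD cells it rose by 0.36 ± 0.10 (edgeR adjusted p = 0.00691), a call lost without DKD insulin replicate 3. With single libraries left out, its log2 fold change was 0.202 to 0.282 in Foxk1 KD cells, where 6 removals lost the call. In Foxk2 KD cells it was 0.264 to 0.365, and 0 removals lost the call.

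Among the isoprenoid enzymes, Fdps, the farnesyl diphosphate synthase, read 48.8, 68.3, 68.7 and 65.0 CPM in Control basal samples and 120, 111 and 118 CPM after insulin. The insulin samples were all above the basal ones, and the log2 change of 0.89 ± 0.11 was the largest of the members in Control cells. Idi1, the isomerase that supplies dimethylallyl diphosphate, rose in Control, Foxk2 KD and DKD cells (0.62 to 0.75 in log2) and was not called in Foxk1 KD cells (0.32 ± 0.14). Ggps1, on the branch that leaves sterol synthesis, did not share the rise. Its log2 difference was -0.08 ± 0.15 in Control cells, and it fell in Foxk1 KD cells by 0.41 on the log2 scale, where the samples overlapped (edgeR adjusted p = 0.0234) and the call was lost without any of 3 single libraries.

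The RNA of the 3 enzymes from squalene to lanosterol rose in Control, Foxk1 KD and Foxk2 KD cells, and that of 2 of them in DKD cells. Lss, the lanosterol synthase, read 475, 395, 420 and 391 CPM in Control basal samples and 601, 679 and 640 CPM after insulin, with no overlap. The log2 fold change of Lss was 0.61 ± 0.07 for Control, 0.75 ± 0.07 for Foxk1 KD, 0.73 ± 0.07 for Foxk2 KD and 0.68 ± 0.07 for DKD cells. Sqle, the squalene epoxidase that catalyses a rate-controlling oxygenation, rose by 0.50 ± 0.07 in Control and 0.60 ± 0.07 in DKD cells. Fdft1, the squalene synthase, rose by 0.32 ± 0.09 in Control cells and missed the threshold in DKD cells, where it differed by 0.22 in log2. Exons of Fdft1 and of Ctsb on the opposite strand share 774 bases, and the strand setting of the counting is not given in the sources used here.

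After lanosterol, Hsd17b7, a keto-reductase of demethylation, had 149, 165, 186 and 160 CPM in Control basal samples and 298, 272 and 264 CPM after insulin. The groups were well apart, and the log2 fold change was 0.75 ± 0.08 in Control and 0.85 ± 0.08 in DKD cells (edgeR adjusted p = 4.72e-09 and 9.75e-10). Nsdhl, the dehydrogenase of the same step, rose by 0.63 ± 0.09 and Cyp51 by 0.45 ± 0.08 in Control cells. Of the sterol reductases that act on the ring, Tm7sf2 rose by 0.68 ± 0.13 and Lbr, which is also a receptor for lamin B, by 0.33 ± 0.12 in Control cells. Without Control basal replicate 1, where Lbr read 53.9 CPM against 86.5 to 87.3 in the others, the rise of Lbr in Control cells was not called (its lowest log2 fold change with any library left out was 0.20). Ebp rose in Foxk1 KD and Foxk2 KD cells and not by the test in Control cells (0.17 ± 0.14, edgeR adjusted p = 0.371), where the insulin samples read 460, 284 and 292 CPM. Dhcr7, which makes cholesterol from its immediate precursor, rose in all 4 genotypes by 0.31 to 0.56 in log2.

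**Figure D2:**
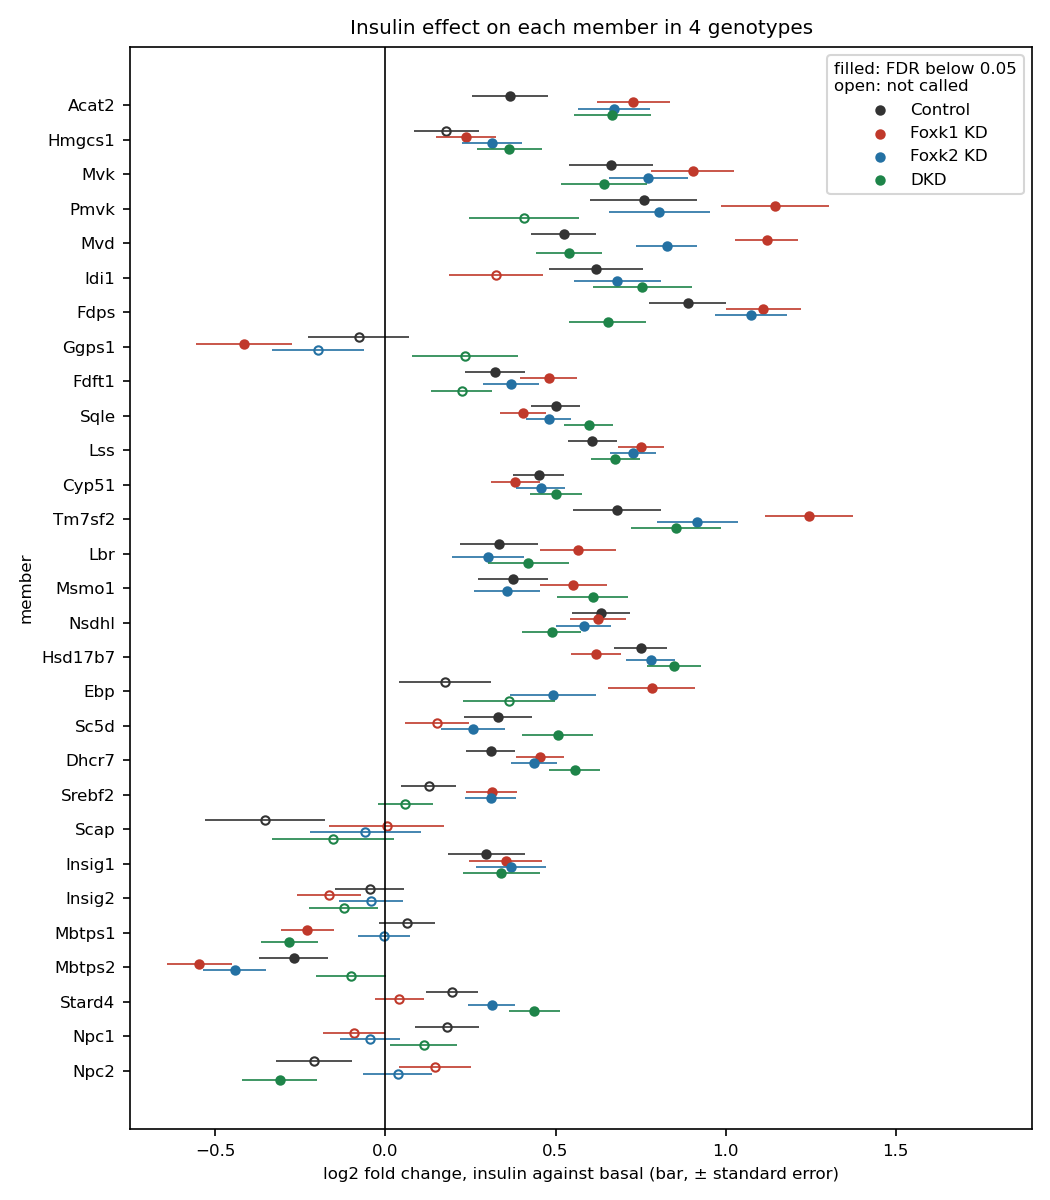
Log2 fold change of insulin against basal (horizontal axis, bar ± standard error) for each tested member (rows) in the 4 genotypes (colours); filled points passed an FDR below 0.05 and open points did not. Points of the enzymes other than Ggps1 lie above 0 in every genotype, whereas Insig2, Scap and the proteases Mbtps1 and Mbtps2 lie around or below it.

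The regulators did not move as a group. Insig1 read 222, 276, 350 and 333 CPM in Control basal samples and 321, 376 and 394 CPM after insulin. These overlapped, with a log2 fold change of 0.30 ± 0.11 (edgeR adjusted p = 0.0478) that was lost without Control basal replicate 1 or any of 3 other libraries, while in Foxk2 KD and DKD cells Insig1 rose with no overlap of samples (0.37 ± 0.10 and 0.34 ± 0.11). The call in DKD cells was lost without any of 6 of the 7 libraries, and the call in Foxk2 KD cells was kept without each of its 8. Insig2, the second INSIG, read 122, 92.3, 98.7 and 88.9 CPM at basal and 108, 85.0 and 98.1 CPM after insulin in Control cells. Its samples overlapped in every genotype, and its log2 differences lay between -0.17 and -0.04, with standard errors of 0.09 to 0.10. Srebf2 rose in Foxk1 KD and Foxk2 KD cells by 0.31 ± 0.07 in each and was not called in Control (0.13 ± 0.08) or DKD cells (0.06 ± 0.08). Its call in Foxk2 KD cells was kept under every alternative at the same threshold. The call in Foxk1 KD cells was kept without each single library but not under every alternative. Control basal replicate 1 read 707 CPM for Srebf2, against 547 to 560 in the others. In log2-CPM relative to the Control basal mean, replicate 1 lay at 0.26 and the others at -0.11 to -0.08. The Control insulin samples lay between them, at 0.08 to 0.19, and the insulin effect without replicate 1 is not given here. Scap was called in no genotype. The site-2 protease gene Mbtps2 fell in Control, Foxk1 KD and Foxk2 KD cells, by 0.27, 0.55 and 0.44 on the log2 scale. In Control cells this call was lost without any of 4 of the 7 libraries and with the GC and length trend taken out, where Mbtps2 differed by -0.22 ± 0.09 (edgeR adjusted p = 0.0639). Mbtps2 shares 2867 exon bases with Yy2, which had no counts of its own. The site-1 protease gene Mbtps1 fell in Foxk1 KD and DKD cells by 0.23 and 0.28 on the log2 scale, and each of these calls was lost without any of 3 single libraries.

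Of the transport genes, Stard4, a cytosolic sterol carrier, rose in Foxk2 KD and DKD cells by 0.31 ± 0.07 and 0.44 ± 0.08 in log2. Npc1 and Npc2, which pass cholesterol out of lysosomes, were not called in Control cells (0.18 ± 0.10 and -0.21). Npc2 fell in DKD cells by 0.31 on the log2 scale (edgeR adjusted p = 0.0494), a call lost without any 1 of the 7 libraries. Mylip, untested, read 2.84, 2.00, 0.248 and 0.714 CPM in Control basal samples and 0.527, 0.316 and 0.314 CPM after insulin, levels that rest on a few counts.

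Whether knockdown altered the size of the insulin effect was tested by the difference of the effects. With edgeR, 0 members passed for Foxk1 KD against Control (7 at an unadjusted p below 0.05, 1 by DESeq2 and 0 by limma-voom), where 0.0% of all genes passed. For Foxk2 KD the count was also 0 (1 at an unadjusted p below 0.05, 0 by DESeq2 and by limma-voom), with 0.0% of all genes, and for DKD it was 0 (3 at an unadjusted p below 0.05, 0 by DESeq2 and by limma-voom), with 1.54% of all genes. These shares are for the edgeR FDR threshold. The share of all genes at an unadjusted p below 0.05 was not counted, so the unadjusted counts have no rate beside them. The largest differences were those of Foxk1 KD minus Control for Ebp, at 0.61 ± 0.19 (edgeR adjusted p = 0.202), and Mvd, at 0.60 ± 0.13 (edgeR adjusted p = 0.101). These 2 were named after their values were seen. Across genes, the Foxk1 KD minus Control difference had a Spearman correlation with GC content of 0.748 over the members and 0.316 over all genes. For Foxk2 KD minus Control these were 0.629 and 0.235, and for DKD minus Control -0.337 and -0.307. The part of base composition in the differences was not tested. For Hmgcs1 the difference of DKD minus Control was 0.18 ± 0.13, and for Insig2 it was -0.08 ± 0.14.

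**Figure D3:**
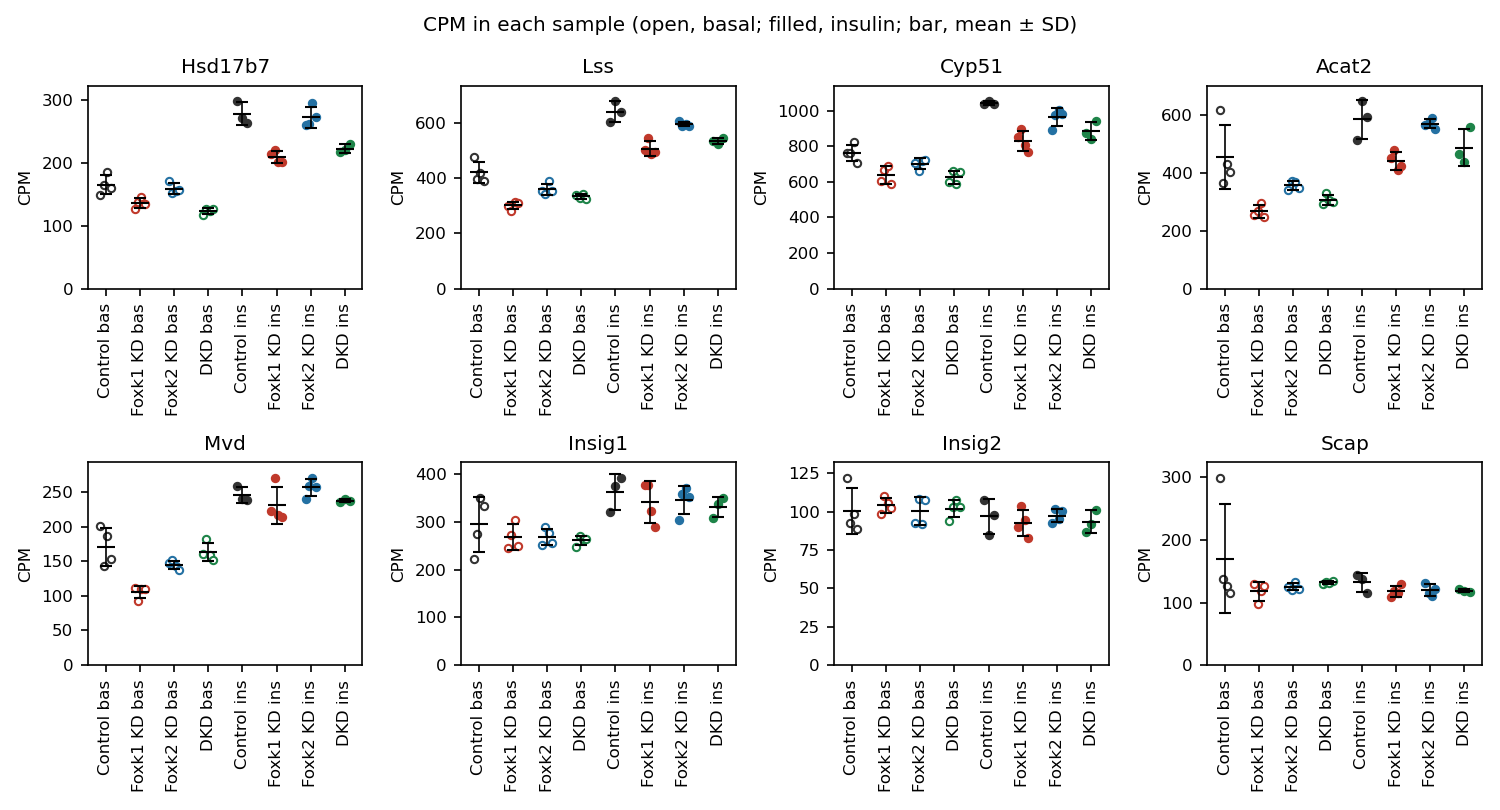
CPM of 8 members in each sample (points; open for basal, filled for insulin) with mean and standard deviation (bars), in the 8 groups along the horizontal axis. Hsd17b7 and Lss separate insulin from basal samples in every genotype (Hsd17b7 149 to 186 against 264 to 298 CPM in Control cells), Insig2 stays near 100 CPM throughout, and Scap has 1 high Control basal sample at 300 CPM.

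At basal, Foxk1 KD cells held less RNA of many members than Control cells. By edgeR 15 of the 29 members were lower and 0 higher at an FDR below 0.05, where 4.71% of all genes were lower, and the median log2 fold change was -0.31 over the members and -0.01 over all genes. The count was 11 without Control basal replicate 1 (3.59% of all genes in either direction), and 3 when only these 2 groups were fitted (0.426%). Acat2, Mvd and Lss were called under each of these settings and under every other alternative at the same threshold. The largest fall was that of Acat2, at 617, 367, 431 and 405 CPM in Control and 255, 269, 296 and 248 CPM in Foxk1 KD samples. Those groups were apart, with a log2 fold change of -0.77 ± 0.11 (edgeR adjusted p = 1.19e-05). Mvd read 112, 93.1, 109 and 109 CPM in Foxk1 KD samples, below all its Control values given above, for a log2 fold change of -0.68 ± 0.09. Lss read 299, 282, 312 and 309 CPM, again below all Control samples, for a log2 fold change of -0.48 ± 0.07 (edgeR adjusted p = 1.56e-05).

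By role, 4 of 5 mevalonate enzymes, 0 of 3 isoprenoid enzymes, 2 of 3 enzymes from squalene to lanosterol and 7 of 9 later enzymes were lower in Foxk1 KD cells at basal. Pmvk fell by 0.70 on the log2 scale, and this call was lost without Control basal replicate 1, where Pmvk read 121 CPM against 55.4 to 72.9 in the others. The calls of Hmgcs1, Fdft1 and Ebp were lost without that library too. Those of Hsd17b7, Cyp51, Msmo1 and Nsdhl were each lost without 2 or 3 other single libraries. Of the regulators Srebf2 fell, from 707, 560, 559 and 547 CPM in Control to 483, 454, 497 and 475 CPM in Foxk1 KD samples. These did not overlap, and the log2 fold change was -0.31 ± 0.07 (edgeR adjusted p = 0.00777), yet the call was lost without the Control library at 707 CPM. Scap was called lower (-0.52 ± 0.16, edgeR adjusted p = 0.0425), but its Control samples read 300, 138, 127 and 116 CPM and its Foxk1 KD samples 130, 97.0, 118 and 126 CPM. The groups overlapped, and without Control basal replicate 1 the log2 difference was -0.10 and not called. No transport gene was called.

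In Foxk2 KD cells at basal, 0 of 29 members were called by edgeR (6 at an unadjusted p below 0.05, 1 by DESeq2 and 0 by limma-voom), where 0.378% of all genes were called in either direction. The share of all genes at the unadjusted threshold was not counted. Acat2 had a log2 difference of -0.34 ± 0.11 and Lss of -0.22 ± 0.07 (edgeR adjusted p = 0.142 and 0.136).

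In DKD cells at basal, 10 members were lower and 2 higher than in Control cells, where 10.8% of all genes were lower and 10.3% higher by edgeR. Without Control basal replicate 1 the counts were 16 lower and 2 higher, and 3063 of 11356 genes were called in either direction. Acat2 was again the lowest of the members, at 293, 332, 306 and 299 CPM in DKD samples, below all Control samples, for a log2 fold change of -0.56 ± 0.11 (edgeR adjusted p = 0.000254). Sc5d, the desaturase before Dhcr7, had 123, 160, 146 and 156 CPM in Control and 95.9, 99.2, 107 and 110 CPM in DKD samples. The DKD samples were all lower, with a log2 fold change of -0.51 ± 0.10 (edgeR adjusted p = 0.000246). Hsd17b7 read 117, 127, 123 and 127 CPM in DKD samples, below all Control values given above, for a log2 fold change of -0.42 ± 0.07 (edgeR adjusted p = 0.000136). Hmgcs1, Sqle, Lss, Cyp51, Msmo1, Dhcr7 and Stard4 completed those that fell, by 0.24 to 0.40 on the log2 scale, and of these the samples of Msmo1 overlapped those of Control.

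The members that rose in DKD cells were Mbtps1 and Npc2. Mbtps1 read 123, 128, 121 and 116 CPM in Control samples and 177, 166, 166 and 144 CPM in DKD samples. The DKD samples were all higher, with a log2 fold change of 0.42 ± 0.08 (edgeR adjusted p = 0.000166). Npc2 rose by 0.28 ± 0.10 (edgeR adjusted p = 0.0456) and was not called when any of 7 single libraries was left out. Srebf2 itself differed by -0.03 ± 0.07 between DKD and Control cells.

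**Figure D4:**
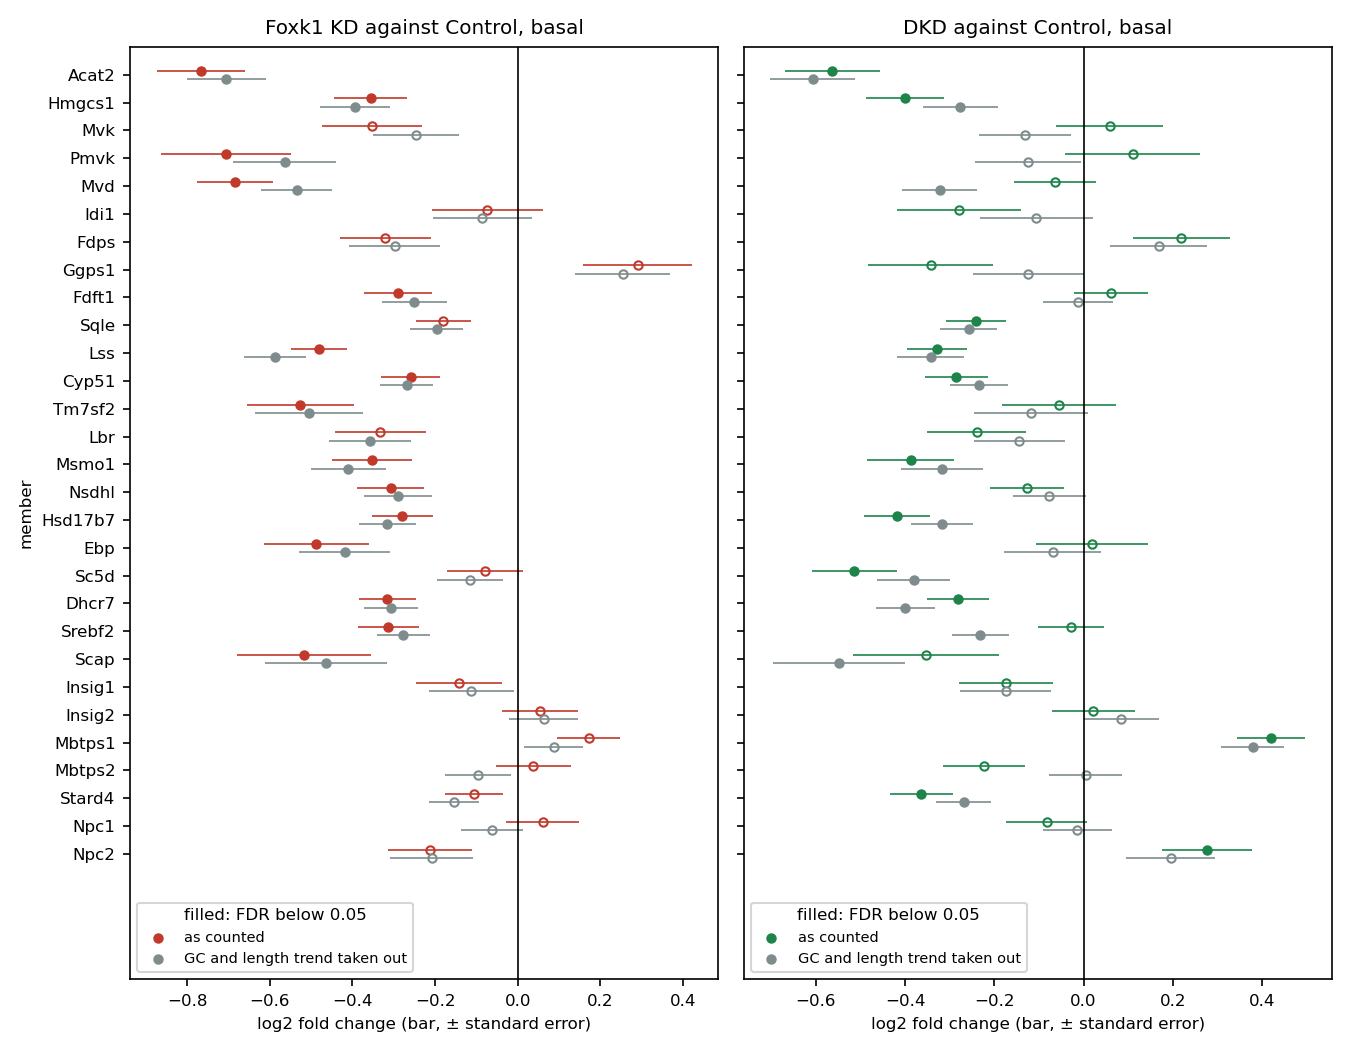
Log2 fold change against Control at basal (horizontal axis, bar ± standard error) for each tested member in Foxk1 KD cells (left) and DKD cells (right), as counted (colour) and with the trend on GC content and length over all genes taken out (grey); filled points passed an FDR below 0.05. In Foxk1 KD cells 15 members as counted and 17 with the trend out lie lower and are called, and in DKD cells 10 and 13.

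The basal differences went with the base composition of the transcripts. Across genes, which are not independent replicates, the log2 fold change of DKD against Control had a Spearman correlation of 0.466 with GC content over 11346 genes and of 0.526 over the 29 members. For Foxk1 KD against Control these were -0.217 over 11344 genes and -0.574 over the members. The GC-rich Mvd (59.0% GC) was lower in Foxk1 KD cells and differed by -0.06 ± 0.09 in DKD cells, whereas Sc5d (42.9% GC) was lower in DKD cells and differed by -0.08 in Foxk1 KD cells. With the trend on GC content and length taken out of the counts, DKD cells had 13 members lower and 1 higher, and Foxk1 KD cells 17 lower and 0 higher. In that fit, over all genes, 16.4% were called in DKD cells and 8.66% in Foxk1 KD cells in either direction. Mvd, Srebf2 and Scap were then also lower in DKD cells, by 0.32, 0.23 and 0.55 on the log2 scale, and Npc2 was no longer called. For Srebf2 and Scap the CPM values lean on Control basal replicate 1. Without it Scap read 116 to 138 CPM in Control against 129 to 135 in DKD samples, and Srebf2 547 to 560 against 551 to 639 CPM. The part of base composition in the uncorrected differences was not tested.

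DKD and Foxk1 KD cells were compared directly at basal, a comparison added after the data were seen. By edgeR 10 members were higher and 4 lower in DKD cells, where 13.8% of all genes were higher and 12.5% lower. Pmvk (0.81 ± 0.16), Mvd (0.62 ± 0.09), Fdps (0.54 ± 0.11) and Ebp (0.51 ± 0.13) were higher in DKD cells in log2, and Ggps1 (-0.63 ± 0.14) and Sc5d (-0.44 ± 0.10) lower. The correlation with GC content was 0.601 over all genes and 0.844 over the members. With the trend taken out 7 members were higher and 2 lower, and 10.8% of all genes were called in either direction. In that fit Pmvk (0.44 ± 0.13), Fdps (0.46 ± 0.11) and Ebp (0.35 ± 0.11) were still called higher, and Mvd was not (0.21 ± 0.09, edgeR adjusted p = 0.111).

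**Figure D5:**
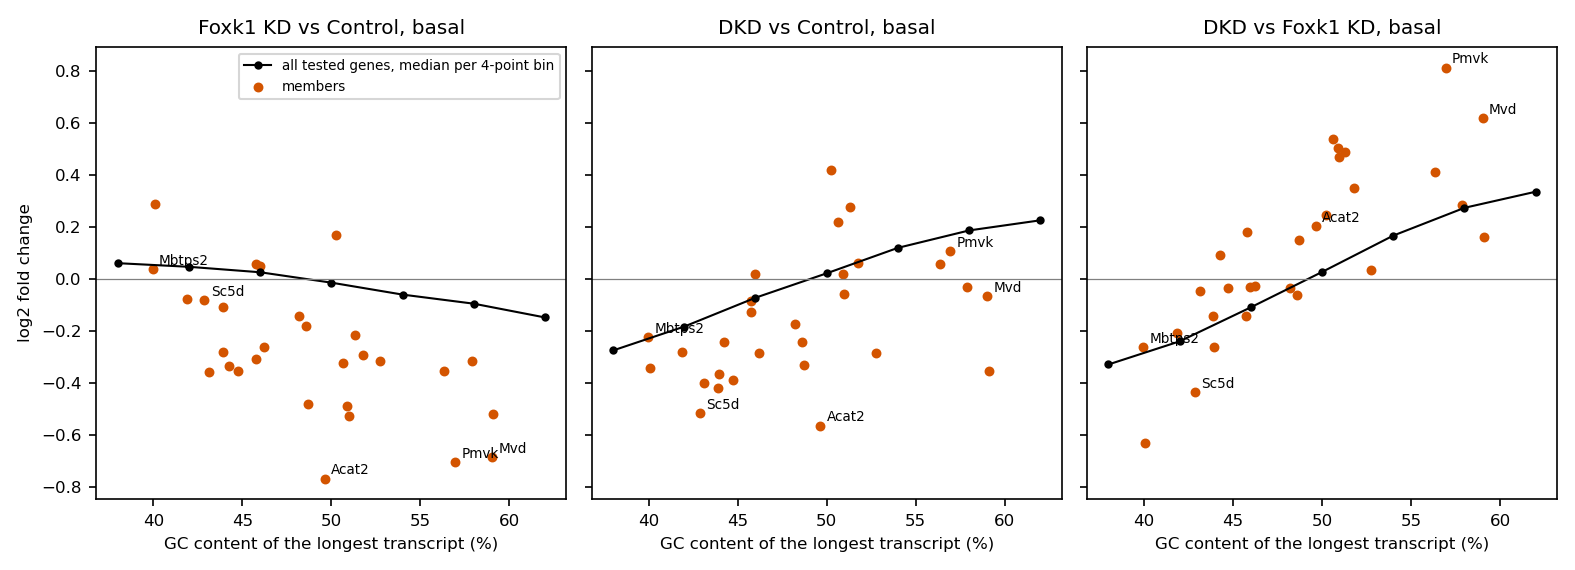
Log2 fold change at basal (vertical axis) against GC content of the longest transcript (horizontal axis, %) for the 29 members (orange) and the median of all tested genes in bins of 4 percentage points (black), for 3 comparisons. The black line falls with GC content in Foxk1 KD against Control and rises in DKD against Control and against Foxk1 KD cells, with Mvd at 59.0% and Sc5d at 42.9% GC near the ends.

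After insulin, in Foxk1 KD cells 6 members were lower and 0 higher by edgeR, where 1.72% of all genes were lower, and between 2 and 5 were called when any 1 library was left out. They were Hsd17b7, Acat2, Lss, Cyp51, Nsdhl and Sqle, of which Hsd17b7 and Lss stayed called without each single library. Hsd17b7 read 214, 220, 202 and 201 CPM in Foxk1 KD samples against 298, 272 and 264 CPM in Control samples. The groups were apart, with a log2 fold change of -0.41 ± 0.08 (edgeR adjusted p = 0.00129). In Foxk2 KD cells 0 members were called, with 0 at an unadjusted p below 0.05 and 0 by DESeq2 or limma-voom, where 0.0264% of all genes were called in either direction. In DKD cells 1 member, Hsd17b7, was lower, where 0.343% of all genes were lower. It read 216, 220 and 231 CPM, below the Control samples, for a log2 fold change of -0.32 ± 0.08 (edgeR adjusted p = 0.0406), and the call was lost whenever any 1 library was left out.

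Summed over the 20 enzymes, Control cells had a mean of 5627 ± 368 CPM (SD, n = 4) at basal and 7499 ± 172 (n = 3) after insulin. Foxk1 KD cells went from 4374 ± 216 to 6329 ± 308 CPM and Foxk2 KD cells from 5059 ± 154 to 7168 ± 364 CPM (n = 4 in each group). DKD cells went from 4646 ± 149 (n = 4) to 6685 ± 213 CPM (n = 3). The insulin samples of each genotype lay above its basal samples. Hmgcs1, Msmo1 and Cyp51 contributed most to the sum, which was given no test.

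Other sterol genes were listed by function, and their counts are read beside the 12.4% of all genes that rose and the 13.1% that fell with insulin in Control cells. Those of sterol efflux and storage were mostly not called, as 0 of 11 tested rose and 1 fell, the esterifying enzyme Soat1 by 0.36 on the log2 scale. Of 9 genes of regulated degradation in the endoplasmic reticulum 2 rose and 1 fell, and the riser with the largest change was Erlin1 (0.57 ± 0.10). Of 9 genes of the transport of SCAP and SREBP to the Golgi (8 of the COPII coat, and 2410131K14Rik), 4 rose and 1 fell, led by Sec24d (1.63 ± 0.30). Of 12 genes of lysosomal handling and uptake 3 rose and 1 fell, with Tmem97 rising most (0.85 ± 0.23) and the acid lipase Lipa falling by 0.54 on the log2 scale. In this list 2 rose and 2 fell in Foxk1 KD cells and likewise in Foxk2 KD cells, and 3 rose and 0 fell in DKD cells. The shares of all genes in these genotypes are given above. Of 11 tested fatty acid genes driven by SREBP1, 7 rose and 0 fell in Control cells. In DKD against Control cells at basal the same list had 0 higher and 4 lower, led by the desaturase Scd1 at -0.81 ± 0.08, and the isoprenoid-using enzymes had 1 higher and 2 lower of 14, where 10.3% of all genes were higher and 10.8% lower.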

How the data were processed

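The authors deposited raw counts of reads per gene for each sample, without normalization, and these were checked to be whole numbers with different totals. Submitters' processing notes name CASAVA 1.8, STAR 2.4.2a, featureCounts and GRCm38.p4, while the annotation release, strand setting and handling of multi-mapped reads are not given in the sources used here. Of 49089 identifiers, 48435 were found in GENCODE M21, which gave symbols, exon lengths and GC content. Totals of 2141460 to 5668270 counts limit the precision of genes at a few CPM. Replicates differed by a chi-square of at least 1.75 per degree of freedom, so no library was a copy. The labels do not say that samples were separate cultures, and the study's methods define N only in general, so p-values measure the spread between these samples, which may be technical.

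Groups came from the labels. Genes passing filterByExpr were scaled by TMM and fitted in 1 model of 8 groups with edgeR 4.0.16 (glmQLFit, glmQLFTest; R 4.3.3), with Benjamini-Hochberg adjustment over all 11368 genes and an FDR threshold of 0.05. Standard errors are the size of the log2 fold change over the root of its F statistic. The steps were tested on simulated data. Members and lists were chosen with earlier results of these data known. All members were described. Of other lists, counts and at most the top riser and faller were named. Alternatives were DESeq2 1.42.0, limma-voom 3.58.1, edgeR's RLE factors, library totals alone, a minimum of 10 counts in every sample or 1 in any, only the groups compared, a replicate block, a GC content and length trend as offset, the study's FDR of 0.25 with and without a fold change of 1.5, and each library left out. Files held no authors' comparisons. Some genes of this pathway are not reported here.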

Additional observations from a re-analysis of the deposited data

Results flagged for a closer look

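In each group of 4 samples, a member's highest or lowest CPM was flagged where its gap to the next sample was too large a part of the group's range (Dixon's 95% criterion). Chance flags about 1 in 20 groups, and 12 of 180 were flagged. Groups of 3 were not tested. In Control basal replicate 1, Scap was at 300 CPM (others 116 to 138), Srebf2 at 707 (547 to 560) and Lbr at 53.9 (86.5 to 87.3). This library stood apart over all genes too, and calls lost without it are named with the results. In Control basal replicate 4, Mbtps2 was at 115 CPM (97.8 to 101). In Foxk1 KD cells, Mvd was at 93.1 CPM in basal replicate 2 (109 to 112) and at 271 in insulin replicate 2 (213 to 222), Sqle at 322 in basal replicate 4 (383 to 389) and Npc2 at 112 in insulin replicate 4 (94.1 to 96.0). Mylip was at 0 CPM in Foxk1 KD insulin replicate 3 (0.369 to 0.373), a difference of single counts. In Foxk2 KD insulin samples, Mvk was at 115 CPM in replicate 3 (83.1 to 86.0) and Msmo1 at 748 in replicate 1 (937 to 965). Dhcr7 was at 151 CPM in DKD basal replicate 4 (178 to 181).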

How the results depend on the processing

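Counts of members called moved by over 1.5 times as follows; the cause was not tested beyond what each setting itself changes. When only the groups compared were fitted, with fewer samples for the spread, counts were 3 for Foxk1 KD against Control at basal, 11 for insulin in Control and 0 for DKD against Control after insulin. DESeq2 gave 1 for Foxk2 KD at basal, 2 for DKD after insulin and 1 for the insulin effect of Foxk1 KD minus Control. Of the genes it tested 0.952%, 1.62% and 0.802% were called. A minimum of 1 count in any sample gave 2, 0 and 2 for the same comparisons (1.0%, 0.664% and 0.732% of all genes). Library totals alone gave 0 for DKD after insulin (1.23%). With the GC and length trend out, DKD against Foxk1 KD at basal had 9 (10.8% of all genes), and Mbtps2 turned from -0.26 to 0.10 in log2 there (edgeR adjusted p = 0.476). An FDR below 0.25 gave 3 for Foxk2 KD and 19 for DKD at basal (3.59% and 43.6% of all genes), 13 for Foxk1 KD and 5 for DKD after insulin (15.1% and 6.66%), and 3 and 2 for the differences in insulin effect of Foxk1 KD and DKD (3.40% and 9.88%). Adding a fold change above 1.5 gave 3 for Foxk1 KD and 0 for DKD at basal (3.6% and 7.6% of all genes). For insulin it gave 8, 10, 9 and 9 in the 4 genotypes (Control first, then Foxk1 KD, Foxk2 KD, DKD). Shares of all genes there were 12.0%, 12.9%, 10.7% and 8.49%. After insulin it gave 0 for Foxk1 KD and for DKD (3.31% and 1.85%). The count was 2 for the insulin effect of Foxk1 KD minus Control (1.55%) and 3 for DKD against Foxk1 KD (8.42%).

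With 1 library left out at a time, counts ranged from 10 to 16 (Foxk1 KD basal), 0 to 0 (Foxk2 KD basal), 11 to 18 (DKD basal), 15 to 19, 19 to 22, 21 to 23 and 16 to 18 (insulin, genotypes in that order), 2 to 5, 0 to 0 and 0 to 0 (the knockdowns after insulin), 0 to 1, 0 to 0 and 0 to 1 (insulin effects) and 12 to 15 (DKD against Foxk1 KD). Leaving a library out of a group of 3 leaves 2. Across all alternatives at an FDR below 0.05, the same genes were called for 3 of 15 (Foxk1 KD basal), 9 of 12 (DKD basal), 11 of 19, 17 of 22, 21 of 23 and 15 of 20 (insulin), 2 of 6 (Foxk1 KD after insulin), 0 of 1 (DKD after insulin) and 7 of 14 (DKD against Foxk1 KD).

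The replicate number was tried as a replicate block: it gave 15 calls for Foxk1 KD and 11 for DKD at basal, 18, 22, 23 and 19 for insulin in the 4 genotypes, and 5 and 0 for Foxk1 KD and DKD after insulin. Of all genes 7.29% and 20.2% were called there at basal, 23.8%, 30.9%, 27.3% and 15.3% for insulin, and 2.91% and 1.03% after insulin. Same-numbered samples had a mean correlation of deviations of -0.0134 over 99 pairs, 8 of them over 0.1, so the numbers did not pair the samples. Depth limits Mylip, with a few counts per sample.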
